A study of Homo sapiens with 4 samples.

Results

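The genes described here encode the actin cytoskeleton and its contractile machinery: actins, transgelins, calponins, nonmuscle myosins, tropomyosins, filament crosslinkers, LIM and focal adhesion proteins, ERM proteins, monomer-binding proteins and the transcription factor SRF. They were taken from the deposited count table by symbol, and all 39 members were found among its 60617 genes, each as 1 row. The libraries came from polyA RNA of SCC13, a cell line from a squamous cell carcinoma of human skin. The control group received lentivirus with a scrambled shRNA (shScr) and the knockdown group lentivirus with an shRNA against CELF2, an RNA-binding protein. The labels give both groups a WT genotype, with 2 libraries in each, and do not say whether the 2 knockdown libraries carried the same shRNA or whether replicates came from separate cultures. The p-values therefore rest on the spread among these 4 libraries alone, and that spread may be technical.

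Actin filaments are built from actin monomers, which profilin delivers to growing ends and cofilin removes from old ones. Nonmuscle myosin II slides filaments past each other, tropomyosins run along the filament and set which motors can bind, and filamins and alpha-actinins tie filaments into networks and bundles. Free actin monomer holds the coactivators MRTFA and MRTFB out of the nucleus, so that assembly of filaments lets them act with SRF on many of the same cytoskeletal genes through a promoter element named the CArG box. In keratinocytes this system drives adhesion, shape change and migration.

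Total counts per library ran from 17649090 to 27898889, and a floor of 3 counts lay between 0.108 and 0.17 CPM (counts scaled to the library total). CELF2 had 1 count in control replicate 1 and 0 in the other 3 libraries, so the loss of the target was not detectable at this depth and its counts do not check the labels (upper Poisson 95% bounds of 0.122 CPM over the controls and 0.0856 CPM over the knockdown, counting error only). All 10 keratinocyte markers were detected, with a summed level of 12785 and 19446 CPM in the controls and 27518 and 18979 CPM in the knockdown. None of the 10 passed the adjusted threshold, but all had a log2 fold change above 0 (median 0.45). For 6 both knockdown libraries were above both controls (60.0%, against 27.1% of all tested genes). Control replicate 1 was the lowest of the 4 libraries for 6 (60.0%, against 27.0%). The gap between the controls exceeded the difference between the group means for 6 (60.0%, against 40.6%). Of 12 fibroblast and smooth muscle markers, 7 had 0 counts in all libraries (COL1A2, COL3A1, DCN, LUM, MYH11, THY1 and POSTN). The other 5 brought the summed level to 13.7 and 16.9 CPM in the controls and 39.04 and 23.2 CPM in the knockdown, most of it from COL1A1.

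The CArG boxes of these genes are shown because SRF acts through them. Of the members, 36 had RefSeq promoter windows (GRCh38.p14, 250 bases before to 50 after a start), 73 windows in all. ACTB, TAGLN and MYL9 had none. A strict CArG box, whose pattern reads the same on both strands, was found in windows of 9 of the 36 genes (25.0%), against 1.60% of the 27305 genes with a window. Per window the shares were 15.1% for the members and 1.29% for all. The list was made of actin, myosin and SRF-type contractile genes, so a raised share follows from that choice and is a description only. A match is a description of the letters and not a measured binding site. The stretches of 30 bases below lie upstream of the start, read 5′ to 3′ on the gene's strand, with the CArG box in capitals. The stretch of SRF holds 2 boxes, at 30 and at 10 bases before the RefSeq start of its window.
SRF: CCATATAAGGagcggcctcgCCATAAAAGG
ACTG1: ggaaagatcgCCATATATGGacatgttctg
FLNA: ggcaattttaCCAATTAAGGctttctcgcc
CNN2: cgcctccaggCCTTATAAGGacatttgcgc
TPM4: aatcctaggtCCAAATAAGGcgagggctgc
ACTN1: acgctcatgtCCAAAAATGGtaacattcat
FHL2: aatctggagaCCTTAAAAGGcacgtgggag
FHL2, second start: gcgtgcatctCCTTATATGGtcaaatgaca
FHL1: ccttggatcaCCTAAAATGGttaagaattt
TES: acacaagaCCAAATTAGGaatggttgccat
They lie at chr6:43171239-43171268 (SRF, plus strand), chr17:81512874-81512903 (ACTG1, minus), chrX:154374709-154374738 (FLNA, minus), chr19:1026509-1026538 (CNN2, plus), chr19:16067355-16067384 (TPM4, plus), chr14:68977718-68977747 (ACTN1, minus), chr2:105438595-105438624 and chr2:105399091-105399120 (FHL2, minus), chrX:136196911-136196940 (FHL1, plus) and chr7:116222703-116222732 (TES, plus).

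The comparison asks whether the contractile genes differed between CELF2 knockdown and control cells. None of the 38 tested members passed when p-values of edgeR's quasi-likelihood test were adjusted by Benjamini-Hochberg across 15170 genes (smallest adjusted p = 0.0543). Of all tested genes 0.877% passed, 92 of them higher (0.606%) and 41 lower (0.270%), a split that became 162 and 161 after an offset for GC content. At an unadjusted p below 0.05 there were 6 members, 15.8% against 22.1% of all tested genes. TAGLN and TPM3 had lower values in the knockdown (9.97% of all tested genes on that side), and MYH14, ACTA2, FLNC and FHL2 had higher ones (12.1%). DESeq2 called 3 members (TAGLN, MYH14 and ACTA2), 7.89% of the 38 against 9.14% of all tested genes. limma-voom called 0 members and 0 of all tested genes. Most estimates were small: 33 of the 38 had a log2 fold change within 0.5 of 0 (86.8%, against 66.4% of all tested genes). The median was -0.08 beside -0.00 for all tested genes, and the median standard error was 0.20 beside 0.25. An estimate within 0.5 of 0 does not show that a gene was unchanged. Some of these genes had intervals that reached beyond 0.5 (ACTB from -0.60 to 0.46 and ACTN1 from -0.34 to 0.78). The 95% interval of the log2 fold change held 0 for 32 of the 38. The groups did not overlap for 19 of the 38 (54.9% of all tested genes), with the knockdown higher for 7 (18.4%, against 27.1%) and lower for 12 (31.6%, against 27.8%). The log2 fold change was below 0 for 23 (60.5%, against 50.3%). In bulk RNA, fewer cells of a type and less RNA per cell cannot be told apart.

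**Figure D1:**
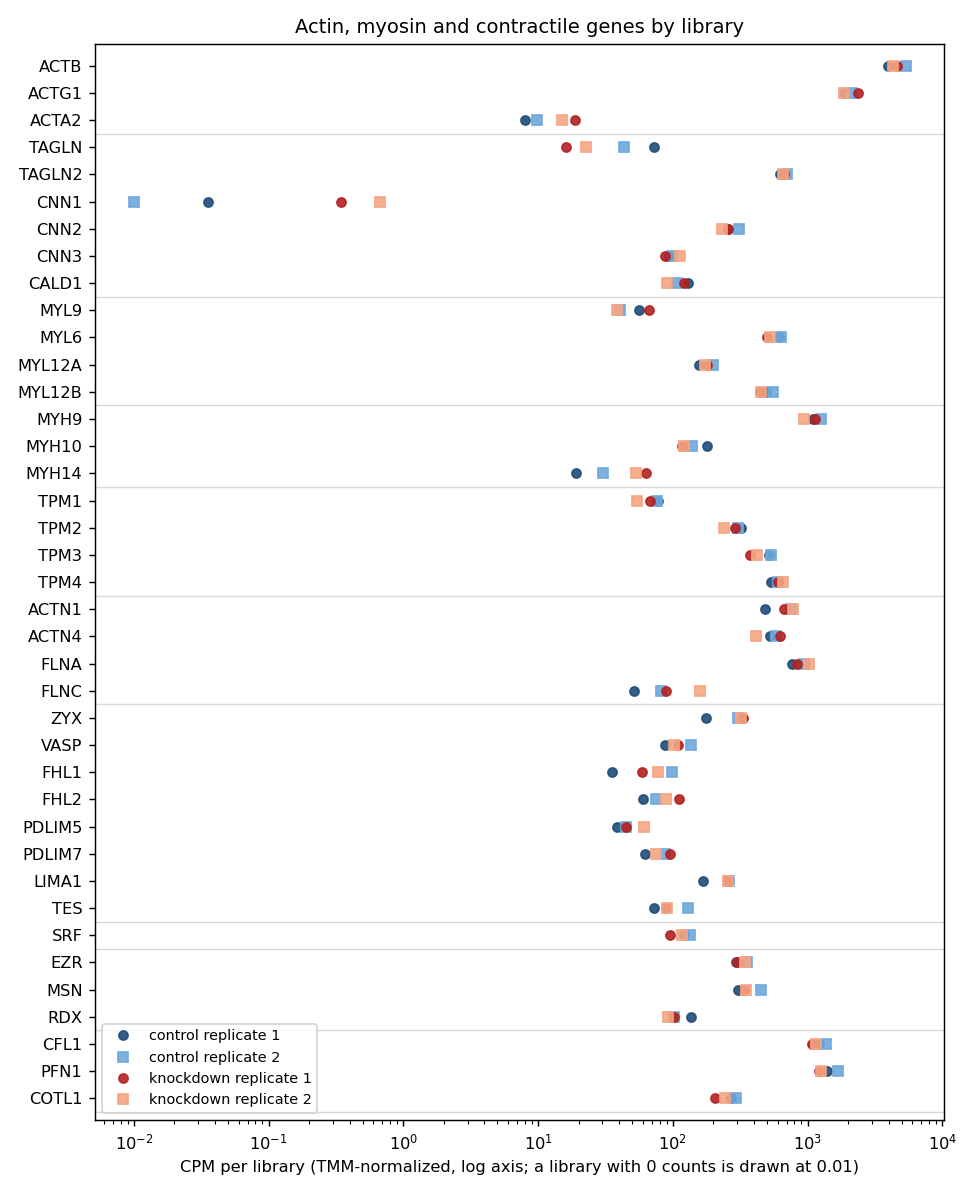
TMM-normalized CPM (log axis) of each of the 39 genes in each of the 4 libraries, grouped by family between the grey lines, with circles for replicate 1 and squares for replicate 2 of each group. The points of most genes fall on top of each other, while TAGLN, MYH14, ACTA2 and CNN1 show controls and knockdown apart.

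**Figure D2:**
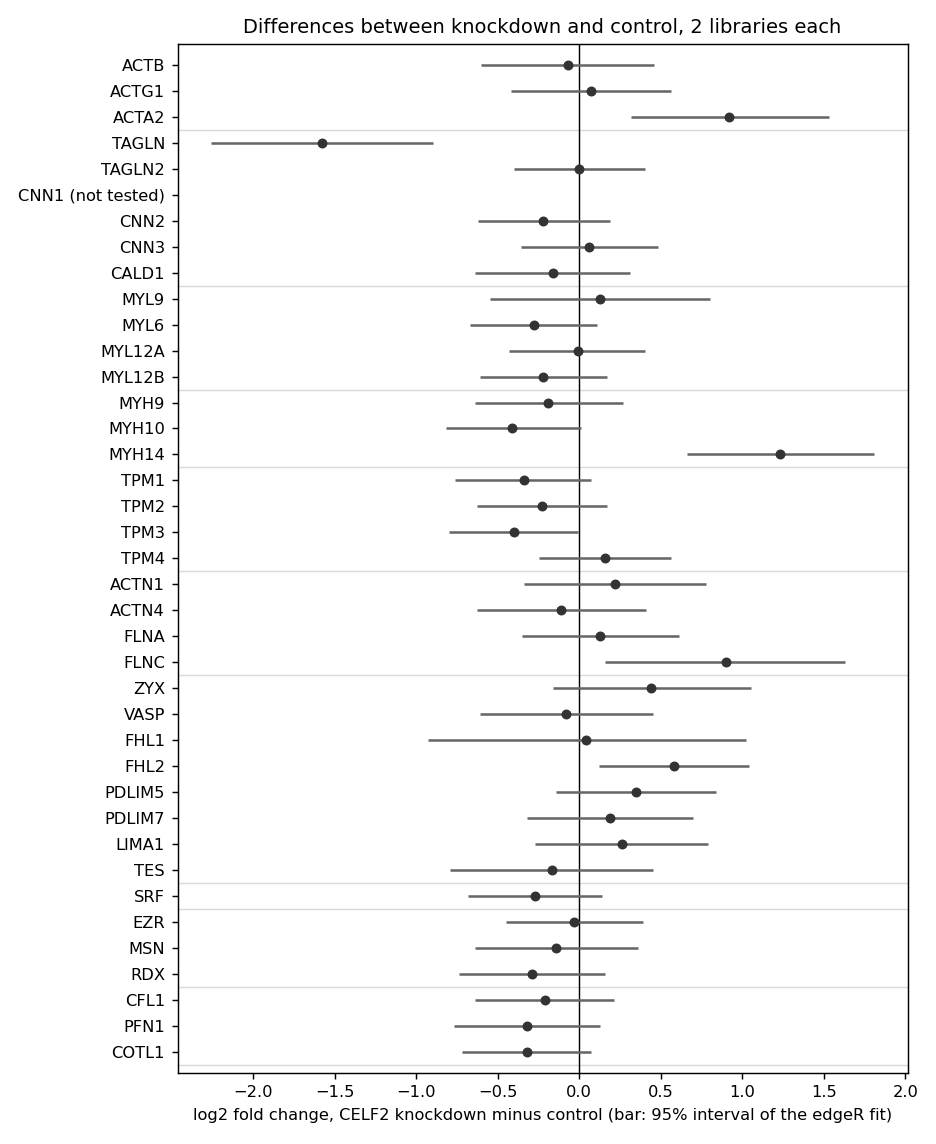
Log2 fold change of each gene, CELF2 knockdown minus control (points), with the 95% interval of the edgeR fit (bars). The intervals of TAGLN (-2.26 to -0.90) and MYH14 (0.66 to 1.81) lie farthest from 0, and 32 of the 38 tested genes have an interval that holds 0.

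Among the actins, the cytoplasmic isoforms held nearly all of the counts. ACTB, the beta actin of the cell cortex and protrusions, had 3990.2 and 5369 CPM in the controls and 4589 and 4317 CPM in the knockdown. The control libraries held both its lowest and its highest value, and the log2 fold change was -0.07 ± 0.23 (SE), with a 95% interval from -0.60 to 0.46. ACTG1, the gamma actin that differs from it at a few residues near the start of the protein, had 1863 and 2154 CPM in the controls and 2362 and 1855 CPM in the knockdown (0.07 ± 0.21, interval -0.42 to 0.56). Its groups overlapped, and its sign turned after the GC offset (-0.07). ACTA2, the alpha actin of smooth muscle and myofibroblasts, was much lower, with 8.01 and 9.86 CPM in the controls and 18.8 and 15.03 CPM in the knockdown. Both knockdown libraries lay above both controls, a 1.9-fold difference (log2 fold change 0.92 ± 0.26, edgeR quasi-likelihood, Benjamini-Hochberg adjusted p = 0.101). The exons of ACTA2 (chr10:88935074-88991339) overlap those of FAS on the opposite strand. FAS had 20.1 and 19.1 CPM in the controls and 13.2 and 14.2 CPM in the knockdown. Its log2 fold change was -0.52 (edgeR quasi-likelihood, Benjamini-Hochberg adjusted p = 0.212). The part of FAS in the counts of ACTA2 was not tested.

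Levels of different genes can be compared only per length, here as CPM per kilobase of the union of a gene's exons in GENCODE v29, averaged over the 4 libraries. ACTB came first with 1298, followed by PFN1 with 697 and ACTG1 with 688. PFN1 and ACTG1 do not differ beyond their spread, since PFN1 ran from 612 to 850.1 and ACTG1 from 619.8 to 789 over the libraries. TAGLN2 (267), MYL12B (250.4), CFL1 (206), MYL6 (124) and MYH9 (123) came next. TAGLN at 9.9, ACTA2 at 4.34, MYH14 at 3.99 and CNN1, last of the 39, at 0.0914 CPM per kilobase stood near the bottom.

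The transgelins and calponins bind along actin filaments. TAGLN (transgelin, or SM22 alpha, a marker of smooth muscle and of SRF activity; chr11:117199321-117204782, plus strand) had the smallest p of the members. It stood at 72.7 and 43.5 CPM in the controls and at 16.2 and 22.7 CPM in the knockdown. Both knockdown libraries lay below both controls, and the mean went from 58.1 ± 20.6 to 19.5 ± 4.57 CPM (SD, n = 2 each), 2.98-fold lower. The log2 fold change of -1.58 ± 0.29 fell short of the threshold (edgeR quasi-likelihood, Benjamini-Hochberg adjusted p = 0.0543) and ranked 225th of 15170 by p. Without control replicate 1, which held its highest value, it was -1.17 (adjusted p = 0.203), and over all alternatives the adjusted p ran from 4.14e-09 to 0.203. Its exons overlap those of PCSK7 on the opposite strand, which had 76.3 and 62.4 CPM in the controls and 76.00 and 55.04 CPM in the knockdown (a log2 fold change of -0.08). TAGLN2, its widely expressed paralog, had 627 and 699 CPM in the controls and 664 and 662 CPM in the knockdown, a log2 fold change of -0.00 ± 0.17 (interval -0.40 to 0.40).

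CNN1, the calponin of smooth muscle, was near the floor and too low to test, with a count of 1 and of 0 in the control libraries and of 7 and 16 in the knockdown libraries. The ratio of its pooled counts per depth was 24.3, with a counting interval (95%) from 3.95 to 1001.1 that leaves out the spread between replicates. The nonmuscle calponins CNN2 and CNN3 and the filament-binding caldesmon CALD1 had log2 fold changes of -0.22, 0.06 and -0.16. Of these 3, only CNN2 had groups that did not overlap (259 and 308 CPM in the controls against 257 and 231 CPM). The muscle-type members did not share a direction, since both knockdown libraries were lower for TAGLN and higher for ACTA2 and CNN1. The summed fibroblast and smooth muscle markers given above were also higher in both knockdown libraries. That sum was mostly COL1A1, and 7 of the 12 markers had 0 counts in all libraries. The part of these markers in the values of TAGLN, ACTA2 and CNN1 was not tested.

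Nonmuscle myosin II is a hexamer of 2 heavy chains with regulatory and essential light chains. MYH9, the heavy chain of myosin IIA and the most abundant of the 3 per length, had 1107 and 1255 CPM in the controls and 1142 and 934 CPM in the knockdown (a log2 fold change of -0.19 ± 0.19). MYH10, of myosin IIB, had 178 and 140.1 CPM in the controls and 117 and 122 CPM in the knockdown, with both knockdown libraries below both controls (-0.41 ± 0.18, interval -0.82 to 0.01). It shares exon positions with NDEL1 on the opposite strand, which had a log2 fold change of 0.40.

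MYH14, of myosin IIC (chr19:50188186-50310544, plus strand), a heavy chain typical of epithelia, had 19.3 and 30.2 CPM in the controls and 63.1 and 53.1 CPM in the knockdown. Both knockdown libraries lay well above both controls, and the mean went from 24.8 ± 7.66 to 58.1 ± 7.02 CPM (SD, n = 2 each), 2.35-fold higher. The log2 fold change of 1.23 ± 0.25 missed the threshold (edgeR quasi-likelihood, Benjamini-Hochberg adjusted p = 0.0599). Leaving out control replicate 1 gave 0.94, and leaving out control replicate 2 gave 1.60 (adjusted p = 0.252 and 0.0189), and over all alternatives the adjusted p ran from 4.14e-06 to 0.252. The keratinocyte markers given above were also above 0, by a median of 0.45, and their part in the value of MYH14 was not tested.

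Of the light chains, none had an unadjusted p below 0.05. MYL6, the essential light chain, had 611 and 638 CPM in the controls and 501 and 531 CPM in the knockdown, lower in both knockdown libraries (log2 fold change -0.28 ± 0.17). It shares exon positions with MYL6B on the same strand and with SMARCC2 on the other. MYL12B, a regulatory light chain, had -0.22 and its close paralog MYL12A -0.01. MYL9, the regulatory light chain typical of smooth muscle, varied more within the groups (56.1 and 40.3 against 66.7 and 38.7 CPM) than between them.

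The log2 fold changes of the 4 tropomyosin genes did not share a sign. TPM3 had 519 and 534 CPM in the controls and 374 and 422 CPM in the knockdown, with a gap of 0.04 between the controls on the log2 scale (log2 fold change -0.40 ± 0.17, interval -0.80 to -0.01, edgeR quasi-likelihood, Benjamini-Hochberg adjusted p = 0.215). TPM1 had 77.8 and 76.8 CPM in the controls and 67.4 and 54.5 CPM in the knockdown (-0.34 ± 0.18), and TPM2 had a log2 fold change of -0.23. For all 3 both knockdown libraries lay below both controls. TPM4 was the other way, with 536 and 599 CPM in the controls and 608 and 657 CPM in the knockdown (0.16 ± 0.17, interval -0.25 to 0.56). For TPM4 the gap between the controls exceeded the difference between the groups (both 0.16 after rounding). Only the interval of TPM3 left out 0. These signs held for all 4 genes under each alternative listed at the end, all of which reuse the same libraries. Gene counts do not separate the muscle and nonmuscle isoforms that each tropomyosin gene makes by alternative splicing.

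Among the crosslinkers, FLNA, the main filamin, had 761 and 945 CPM in the controls and 835 and 1031 CPM in the knockdown, with groups that overlapped (log2 fold change 0.13 ± 0.20). FLNC, the filamin of muscle and stressed cells, had 51.8 and 81.7 CPM in the controls and 89.3 and 159 CPM in the knockdown. Both knockdown libraries were above both controls, but control replicate 2 and knockdown replicate 1 nearly met. Its log2 fold change was 0.90 ± 0.32 (edgeR quasi-likelihood, Benjamini-Hochberg adjusted p = 0.161) with all libraries. Leaving out knockdown replicate 2 gave 0.42 (adjusted p = 0.476) and leaving out knockdown replicate 1 gave 1.26 (adjusted p = 0.04), and over all alternatives the adjusted p ran from 0.000469 to 0.579. The alpha-actinins ACTN1 and ACTN4, which bundle filaments, had 0.22 and -0.11, and the 95% interval of each held 0 (-0.34 to 0.78 and -0.63 to 0.41).

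All 8 LIM and focal adhesion genes had their lowest value in control replicate 1. ZYX (zyxin, which marks focal adhesions under tension) had 176 and 306 CPM in the controls and 332 and 322 CPM in the knockdown, so that control replicate 2 stood next to the knockdown and control replicate 1 apart. The log2 fold change was 0.44 ± 0.26. Leaving out control replicate 1 gave 0.09, and leaving out control replicate 2 gave 0.91. FHL1, a LIM-only protein, spread most, from 35.5 CPM in control replicate 1 to 98.1 CPM in control replicate 2, with 59.2 and 78.1 CPM in the knockdown between them. LIMA1 (EPLIN, which stabilizes filaments), TES, VASP (which extends filament ends) and PDLIM7 likewise had groups that overlapped, with log2 fold changes from -0.17 to 0.26.

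FHL2, an SRF-regulated LIM-only cofactor whose 2 CArG boxes are shown above, was 1.5-fold higher, with 59.99 and 74.7 CPM in the controls and 112 and 89.7 CPM in the knockdown. The libraries of the 2 groups did not overlap (log2 fold change 0.58 ± 0.20, edgeR quasi-likelihood, Benjamini-Hochberg adjusted p = 0.146). PDLIM5, which links kinases to the Z-disc and to stress fibres, had 38.5 and 44.7 CPM in the controls and 45.01 and 60.9 CPM in the knockdown (0.35 ± 0.21).

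SRF itself (chr6:43171299-43181507, plus strand) had 122 and 134 CPM in the controls and 94.9 and 117 CPM in the knockdown. Both knockdown libraries lay below both controls by a small margin (log2 fold change -0.27 ± 0.18, interval -0.68 to 0.14, edgeR quasi-likelihood, Benjamini-Hochberg adjusted p = 0.41). The 9 members with a CArG box in a window had log2 fold changes from -0.27 (SRF) to 0.58 (FHL2), with a median of 0.07, and 6 of the 9 were above 0. The 26 tested members with windows and no box ran from -0.41 to 1.23, with a median of -0.12, and 8 were above 0. Without control replicate 1, ACTG1, ACTN1, FLNA and FHL1 turned below 0 among the members with a box. PDLIM7 and LIMA1 did so among those without one. The difference between these sets was not tested. Of the genes with the farthest values, TAGLN had no window, and MYH14, ACTA2 and FLNC had windows without a box. No match says only that these letters are not in these windows.

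The ERM proteins link filaments to the membrane. EZR, MSN and RDX had log2 fold changes of -0.03, -0.14 and -0.29, and the groups of each overlapped. The monomer- and filament-binding proteins were a little lower in the knockdown for all 3 genes. PFN1 (profilin) had 1385 and 1689 CPM in the controls and 1216 and 1250.4 CPM in the knockdown (-0.32 ± 0.19). COTL1, which binds filaments and a leukotriene-synthesis enzyme, had 271 and 295 CPM in the controls and 207 and 245 CPM in the knockdown (-0.32 ± 0.17). CFL1 (cofilin) had -0.21, and for all 3 the groups did not overlap while the 95% interval held 0. The separate rows of pseudogenes named after PFN1 had counts equal to 2.01% of its own, the highest such ratio among the members.

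Shares within a paralog family do not depend on how the libraries are scaled, and are given as percent of the family's counts with Wilson 95% intervals that cover counting error only. They were chosen after the values had been seen and are a description; with 2 libraries against 2, an exact permutation test cannot go below p = 0.333 (two-sided). MYH14 took 1.48% (1.36 to 1.61) and 2.12% (1.94 to 2.31) of the myosin II heavy chain counts in the controls. In the knockdown it took 4.77% (4.52 to 5.03) and 4.79% (4.54 to 5.05), close to each other and clear of both controls. MYH9 stayed the main heavy chain, at 84.2% to 88.1% in the 4 libraries.

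TAGLN took 10.4% and 5.86% of the transgelin counts in the controls, against 2.39% and 3.31% in the knockdown. ACTA2 took 0.137% and 0.131% of the actin counts in the controls, against 0.27% and 0.243% in the knockdown. Within the tropomyosins, TPM3 went from 35.7% and 35.3% to 27.9% and 30.7%, and TPM4 from 36.9% and 39.6% to 45.4% and 47.8%. TPM4 held the largest share of the counts in every library, but counts also depend on gene length. Per kilobase of exon, TPM2 had a higher mean over the 4 libraries (88.8 CPM) than TPM4 (69.5 CPM). Only in knockdown replicate 2 was TPM2 below TPM4 per kilobase (74.1 against 76.1 CPM). FLNC took 6.37% and 7.96% of the counts of FLNA and FLNC in the controls, against 9.66% and 13.3% in the knockdown. The balance of ACTB to ACTG1 overlapped between the groups, with ACTB at 68.1% and 71.3% in the controls, against 65.8% and 69.8% in the knockdown.

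**Figure D3:**
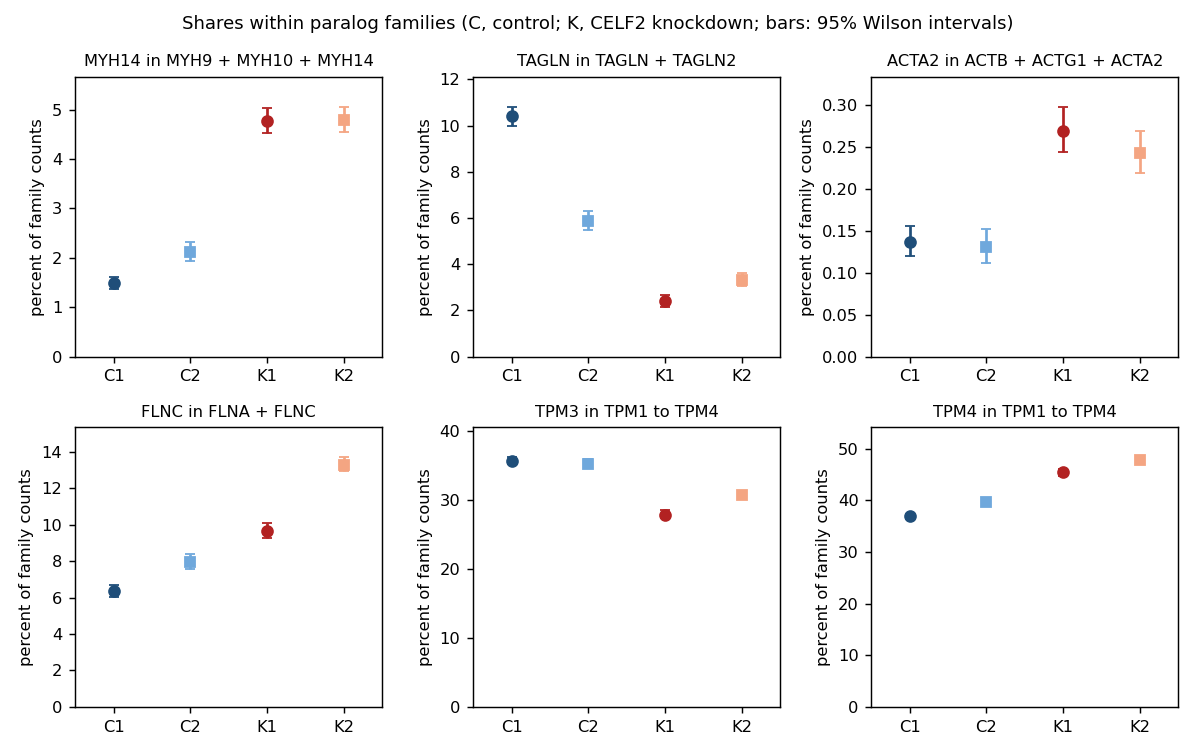
Percent of a paralog family's counts taken by 1 gene in each library (C1 and C2, control replicates; K1 and K2, CELF2 knockdown replicates), with Wilson 95% intervals as bars and every axis starting at 0. MYH14, ACTA2, FLNC and TPM4 take larger shares in both knockdown libraries than in both controls, and TAGLN and TPM3 smaller ones.

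The spread between the controls was as large as the group difference for many members. For 21 of the 38 tested members (55.3%, against 40.6% of all tested genes) the gap between the controls exceeded the difference between the group means on the log2 scale. Control replicate 1 was below control replicate 2 for 31 of the 38 (81.6%, against 46.5%) and was the lowest of the 4 libraries for 19 of the 38 (27.0% of all tested genes). The median gap between the controls was 0.29, and the median size of the group difference 0.22. Control replicate 1 was also the most deeply sequenced library, and its part in these results was not tested beyond the values without it. Without control replicate 1 the members' median log2 fold change was -0.18 (over 39 genes, as CNN1 then passed the filter), and 29 of the 38 were below 0. Without control replicate 2 the median was 0.13 (over the same 39 genes), and 17 of the 38 were below 0. With all libraries the median was -0.08 (over 38 genes) and 23 were below 0.

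**Figure D4:**
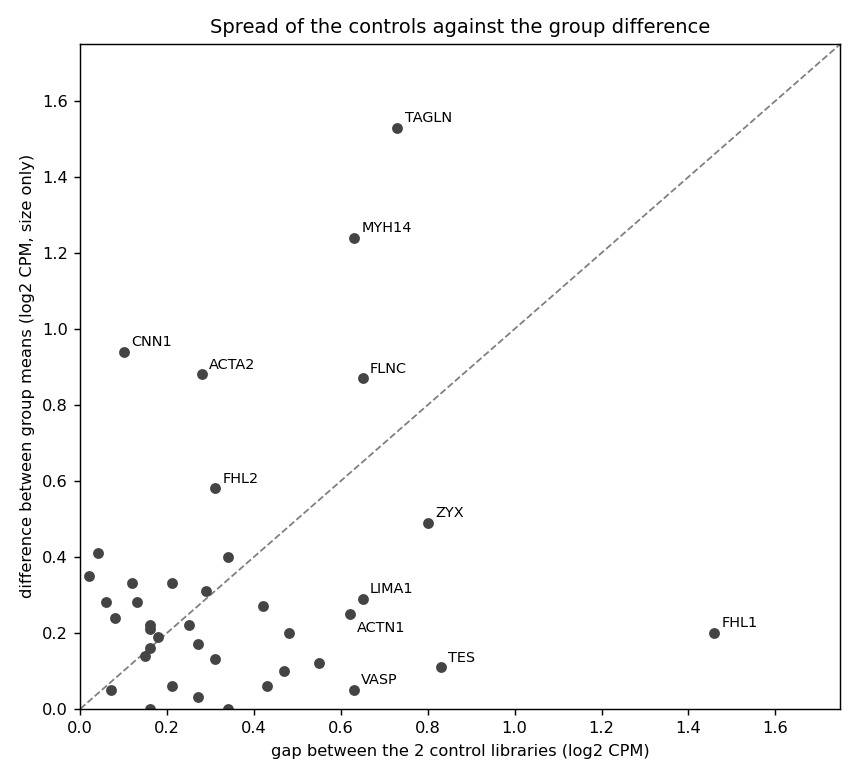
Size of the difference between group means (vertical) against the gap between the 2 control libraries (horizontal), both in log2 of CPM plus 0.5, 1 point per gene, with equality as the dashed line. TAGLN, MYH14, ACTA2, FLNC, FHL2 and CNN1 lie above the line, and FHL1, with a control gap of 1.46, lies far below it.

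Other genes of actin control, in lists that hold none of the members, also had 0 calls in the edgeR fit. For Arp2/3, capping and monomer control, which covers branched filaments, 1 of 28 genes (3.57%, against 22.1% of all tested genes) had an unadjusted p below 0.05. The median was -0.09, beside -0.00 for all tested genes. The branching subunit ARPC1A had a log2 fold change of -0.52, and ACTR3, the capping protein CAPZA1 and the monomer-binding thymosin TMSB10 had -0.30, -0.34 and -0.36. The range over the 28 genes was -0.52 to 0.38.

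Of the 26 other SRF cofactors and targets 18 were tested, 2 of them (11.1%, against 22.1%) with an unadjusted p below 0.05, and the median was 0.12. SYNPO, which encodes the actin-bundling synaptopodin, had 6.33 and 8.38 CPM in the controls and 41.5 and 12.8 CPM in the knockdown (1.89 ± 0.51, adjusted p = 0.0944). ELK3, an SRF partner, and PDLIM1 had -0.46 and 0.46. The coactivators MRTFA and MRTFB had 0.19 and -0.27, with groups that overlapped, and the muscle genes ACTC1 and MYH11 had 0 counts in all libraries.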

How the data were processed

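The deposited file is a table of unnormalized counts, whose rows are Ensembl genes and whose columns are the 4 libraries. HISAT2, edgeR and GRCh38 are named in the submitters' processing notes, without versions. For the counting program, annotation and strand setting, nothing is given in the sources used here, so the 20 members whose exons overlap another gene in GENCODE v29 (GRCh38) have uncertain counts, as have those with close copies. Columns were matched to samples by the sample descriptions, and groups and replicate numbers come from the titles. Replicates were compared before use (chi-square per degree of freedom 59.8 for the controls and 52.6 for the knockdown).

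Genes were tested with edgeR 4.0.16 (R 4.3.3; TMM, filterByExpr at a minimum count of 10, quasi-likelihood test, Benjamini-Hochberg threshold 0.05). The common biological coefficient of variation was 21.6%. The fit was tested on simulated data. Standard errors and 95% intervals come from the fit, and CPM are TMM-normalized. Count intervals and floors hold counting error and nothing else.

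The members and lists were chosen with earlier results of these data known. Described in full were members past the threshold, the 12 others with the smallest p, SRF, ACTB, ACTG1, ACTA2, TAGLN and CNN1, and the 4 genes with the smallest p per list. A further list and 1 gene are not reported here. MRTFA, MRTFB, ACTC1 and MYH11 and further values of single members were added after their values had been seen. Alternatives were other size factors, no low-count filter, DESeq2 1.42.0, limma-voom (limma 3.58.1), a replicate block, a GC offset (lowess span 0.3) and leaving out each library.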

Additional observations from a re-analysis of the deposited data

How the results depend on the processing

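The number of genes called over all tested genes was 133, and 207 with DESeq2's size factors in edgeR, 2139 with no filter on low counts, 1386 with DESeq2, 0 with limma-voom (smallest adjusted p 0.0558), 323 with a GC offset, and 0 to 616 when 1 library was left out (without a control, 0 for replicate 1 and 616 for replicate 2, and without a knockdown library, 365 for replicate 1 and 7 for replicate 2). The members called, 0 in the edgeR fit above, were 5 of 39 with no filter (12.8%, against 8.25% of all tested genes). These were TAGLN, MYH14, ACTA2, FLNC and CNN1. With DESeq2 3 members were called (7.89%, against 9.14%), and with the GC offset 1, TAGLN (2.63%, against 2.13%). Replicate numbers 1 and 2 occur in both groups, but the labels do not say that a number marks a shared batch (correlation of the deviations of same-numbered libraries 0.2, with only 2 pairs). With the replicate block 1579 genes (10.4%) and 3 members (7.89%) were called, the members being TAGLN, MYH14 and FLNC. With the block and the GC offset 2236 genes (14.7%) and 5 members (13.2%) were called.

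The other SRF cofactors and targets had 3 calls among 23 tested with no filter (13.04%, against 8.25% of all tested genes). Of 18 tested, 2 were called with DESeq2 (11.1%, against 9.14%) and 2 with the replicate block (11.1%, against 10.4%). With the block and GC offset 4 of the 18 were called (22.2%, against 14.7%). The members' median ran from -0.18 to 0.13 with 1 library left out (over 39 tested members at both ends). With upper-quartile factors the medians of the Arp2/3 and SRF lists were -0.03 and 0.17. The SRF list had 0.08 with no filter and 0.15 with the GC offset, and the Arp2/3 list 0.01 with the GC offset, with and without the block. With 1 library left out, the SRF median ran from -0.01 to 0.10. ACTG1 turned to -0.07 with the GC offset, with and without the block, and ran from -0.11 to 0.23 with 1 library left out, where ACTB ran from -0.28 to 0.17. The other 13 tested genes described in full kept their sign in every fit. The causes were not tested. With 1 library left out, the lone library of a group is assumed to vary like the other group. CNN1 and CELF2 were below the floor of 3 counts in both controls, so their control levels were not measurable at this depth.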

Other observations

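The 39 genes together took 1.74% and 2.01% of all counts in the control libraries, beside 1.89% and 1.84% in the knockdown libraries. ACTB ranked between 9th and 11th of all genes by counts in each library. Of the members, 16 had pseudogenes of their own name in the table, as separate rows whose counts over the 4 libraries equalled 0% to 2.01% of the parent's. After PFN1 the highest ratio was 1.06%, for TPM3. The 10 pseudogenes named after ACTB had counts equal to 0.0199% of its own, and the 20 named after ACTG1 0.0233%.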
